A study of Mus musculus with 6 samples.

Results

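The genes described here are 38 genes of the Wnt pathway, out of 17128 genes in a table of read counts from marrow stromal cells. The choice went by gene symbol and took all Wnt ligands, Frizzled receptors, R-spondins and LGR4 to LGR6 receptors in the table, and 11 named co-receptors, cytoplasmic proteins, transcription factors and ubiquitin ligases. They comprised 10 ligands, 4 R-spondins, 3 R-spondin receptors, 10 Frizzled receptors, 2 co-receptors, 2 receptor ubiquitin ligases, 3 cytoplasmic genes and 4 transcription factors. The cells came from femurs of mice at postnatal day 21. In 3 control libraries GFP+ cells were sorted from mice whose 2 Cxcl12 alleles were a GFP knock-in and a floxed copy, together with the R26R tdTomato reporter (genotype Cxcl12(GFP/fl); R26R(tdTomato/+)). In 3 CXCL12-deficient libraries GFP+tdTomato+ cells were sorted from mice that carried the same alleles and Col2a1-cre. Controls therefore already lacked one intact Cxcl12 copy, had no cre, and were sorted on GFP alone. The promoter of Col2a1, a cartilage collagen gene, drives cre in cartilage cells and early skeletal precursors, so tdTomato marks their descendants. Genotype and sorting gate changed together and cannot be told apart. The labels do not say whether a library came from 1 animal or several, so the tests measure the spread between these libraries.

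Wnt proteins are secreted lipid-modified signals that bind Frizzled receptors on nearby cells. In the canonical branch a Frizzled and its co-receptor LRP5 or LRP6 stop the AXIN-based complex from destroying beta-catenin, which then enters the nucleus and acts with TCF/LEF factors on target genes such as Axin2. R-spondins strengthen the signal by binding LGR receptors and removing the ubiquitin ligases RNF43 and ZNRF3, which otherwise take Frizzleds off the cell surface. In bone, canonical Wnt signalling is known to favour bone formation by osteoblasts and to hold back fat cell differentiation of marrow stromal cells.

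Each library held between 20133299 and 28009257 counts, and a single read (1 count) came to 0.0357 to 0.0472 CPM, the unit of library-scaled counts used below. The targeted gene Cxcl12, summed over its 4 exon entries, had 3876, 3673 and 3694 CPM in the control libraries and 1423, 1280 and 1163 CPM in the CXCL12-deficient ones, numbered 1 to 3 within each group in the order of deposit. All 14 markers of CXCL12-abundant reticular cells, the stromal cells that the labels name, had reads in every library. With Cxcl12 included, they summed to between 15256 and 17219 CPM in controls and between 18446 and 25735 CPM in CXCL12-deficient libraries. By edgeR 3 of the 14 were called higher (Adipoq, Cxcl14 and Ebf3) and 1, Cxcl12 itself, lower. The log2 fold change was positive for 13, with a median of 0.70 over the 14. An unadjusted p below 0.05 was reached by 11 of them, and by 18.9% of all tested genes. Blood cell RNA was also present and differed between the groups: 14 neutrophil markers summed to 14612 to 20616 CPM against 2388 to 6813 CPM, and all 14 fell. By edgeR 7 of 14 monocyte and macrophage, 6 of 7 tested megakaryocyte, 5 of 7 tested fibroblast and 2 of 7 tested blood progenitor markers also fell. Cd34 is counted in both the fibroblast and the progenitor list. The fibroblast markers Clec3b and Dpt had at most 6 reads in a library and were not tested. Tnmd and Scx were tested and not called. Not all blood genes were lower: by edgeR 0 of 10 erythroid markers were called, with 0 at an unadjusted p below 0.05, and DESeq2 and limma-voom each called 0 (sums of 1966 to 3171 CPM in controls and 1430.4 to 4651 CPM in CXCL12-deficient libraries). The macrophage genes C1qa, C1qb and C1qc had higher means in CXCL12-deficient libraries (16.9, 42.04 and 45.3 against 12.3, 24.4 and 26.4 CPM), with overlap between the groups. The 11 osteoblast markers ranged from 8347 to 29314 CPM in controls, with control replicate 1 highest, and from 13225 to 20332 CPM in CXCL12-deficient libraries.

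One of the Wnt pathway genes differed between the groups by the edgeR quasi-likelihood test with Benjamini-Hochberg adjustment over all genes tested. Of the 38 genes, 30 passed the filter on low counts and 1 of them, the ligand gene Wnt5b, rose. Over all 13926 tested genes 4.57% were called, 0.639% higher and 3.94% lower, so a count of 1 among 30 was close to the background. At an unadjusted p below 0.05 there were 5 (Wnt5b, Wnt11, Fzd9, Znrf3 and Lef1), where 18.9% of all tested genes passed. The groups did not overlap at 6 (Wnt5b, Wnt11, Wnt10a, Znrf3, Lgr5 and Lef1), against 25.6% of all tested genes. The median log2 fold change was 0.22 in the 30 genes and 0.03 in all tested genes, with 19 positive and 11 negative values among the 30. The call on Wnt5b depended on single libraries: leaving out control replicate 1, 2 or 3 left no called gene of the 38 by edgeR, with 5, 2 and 2 at an unadjusted p below 0.05. Over all tested genes, 89 were called higher with all libraries and 47, 6 and 0 in these 3 refits. The loss of the call was therefore shared with most genes called higher when control replicate 2 or 3 was left out.

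**Figure D1:**
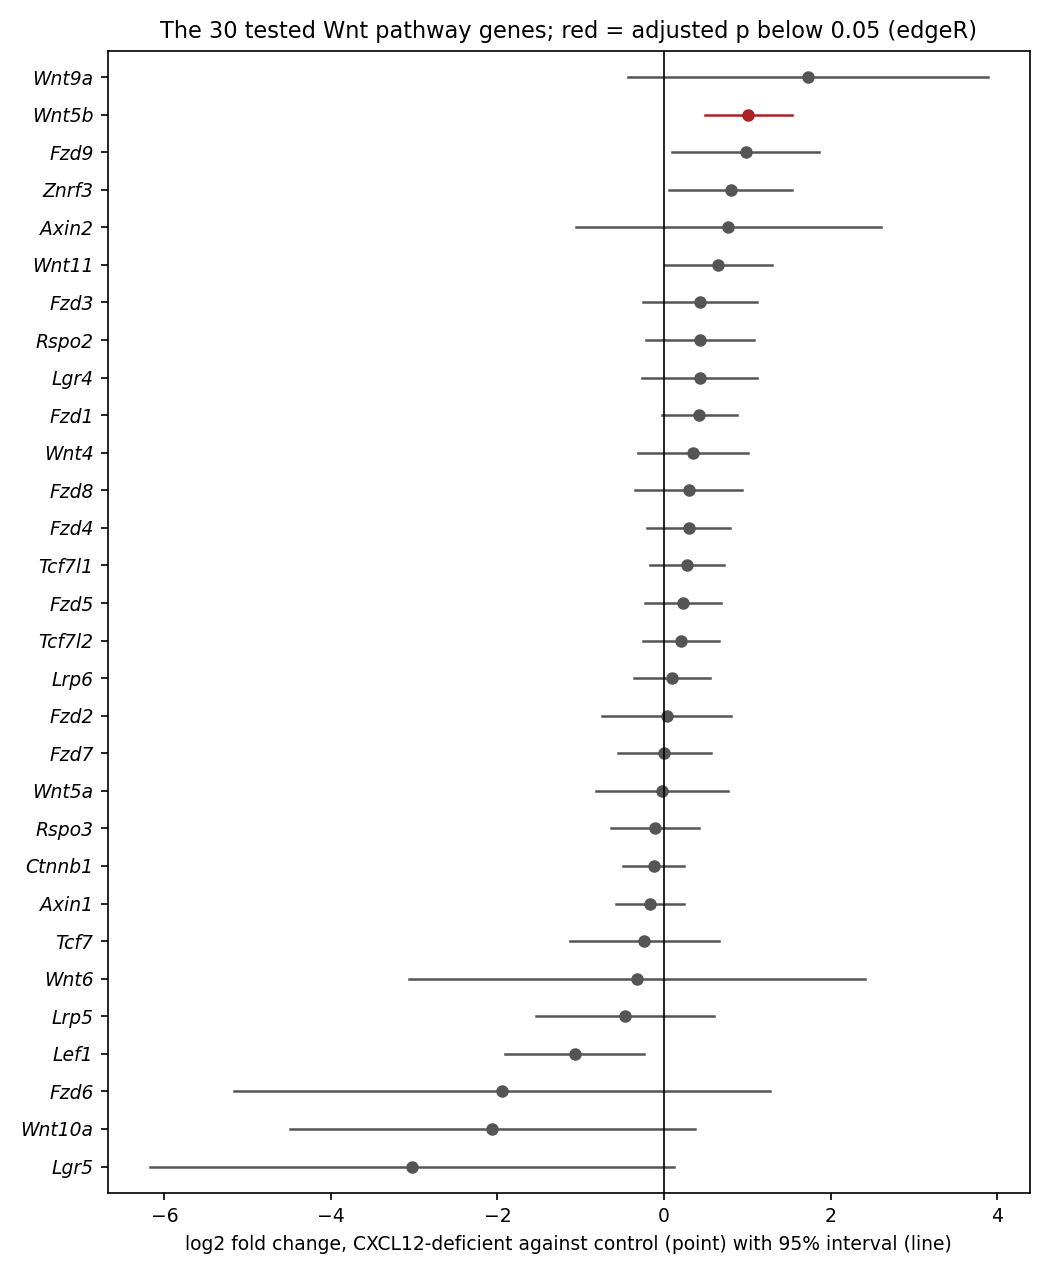
Log2 fold change of CXCL12-deficient against control libraries for each of the 30 tested genes (points) with its 95% interval from the edgeR fit (lines), ordered by size. Wnt5b, in red, was the 1 called gene, and the intervals of Lgr5, Wnt10a, Fzd6 and Wnt6 were the widest.

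Wnt5b, a ligand known mainly for signals that do not act through beta-catenin, doubled. Its level was 32.0, 24.1 and 28.5 CPM in control replicates 1, 2 and 3 and 40.0, 68.2 and 62.6 CPM in CXCL12-deficient replicates 1, 2 and 3. Every CXCL12-deficient library lay above every control, and CXCL12-deficient replicate 1 was the nearest to the controls. The means were 28.2 ± 3.95 and 56.9 ± 14.9 CPM (SD, n = 3 each), a 2.02-fold difference (log2 fold change 1.01 ± 0.23 SE, 95% interval 0.49 to 1.53, adjusted p = 0.0417, edgeR). The call was lost when control replicate 1, 2 or 3 was left out (adjusted p = 0.0689, 0.169 and 0.175, edgeR). It was also lost for CXCL12-deficient replicates 2 and 3 (adjusted p = 0.103 and 0.101, edgeR), and it held when CXCL12-deficient replicate 1 was left out (adjusted p = 0.0154, edgeR). Its log2 fold change stayed between 0.86 and 1.21 in these 6 refits. Limma-voom gave an adjusted p of 0.0509 and DESeq2 one of 0.00212. In such sorted bulk samples a change in the share of cells that make a transcript and a change in the transcript per cell cannot be told apart. Wnt5b is known from cartilage; the 8 measured chondrocyte markers summed to 175, 1433 and 489 CPM in controls and 535, 129 and 146 CPM in CXCL12-deficient libraries. Most of the spread of that sum was Col2a1, with 86.9, 1149 and 343 CPM against 377, 15.2 and 12.3 CPM. Sox9, a cartilage regulator of the same list, had 73.8, 94.3 and 84.5 CPM against 43.9, 104 and 122 CPM. Like Wnt5b, it was highest in CXCL12-deficient replicates 2 and 3. In controls the order was opposite. Sox9 was lowest in replicate 1, where Wnt5b was highest, and highest in replicate 2, where Wnt5b was lowest. The other measured markers (Acan, Col2a1, Col9a1, Matn3, Col10a1, Comp and Hapln1) were highest of the CXCL12-deficient libraries in replicate 1. Wnt5b was lowest of its group there. Comp, for example, had 34.8, 7.02 and 11.3 CPM in CXCL12-deficient replicates 1, 2 and 3. The part of cartilage RNA in the Wnt5b values was not tested. Wnt5b spans chromosome 6 from 119432531 to 119544347 (GRCm38, minus strand), and GENCODE M21 lists no other gene over its exons.

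Wnt11 and Wnt4 were the most abundant ligand genes, with no call on either. Wnt11, known for cell movement and polarity signals, had 174, 137 and 72.9 CPM in controls and 176, 193 and 234 CPM in CXCL12-deficient libraries. The groups came within a few CPM of each other without overlapping, since control replicates 1 and 3 lay far apart. The log2 fold change was 0.65 ± 0.28 SE (95% interval 0.01 to 1.29, unadjusted p = 0.0474, adjusted p = 0.257, edgeR). Wnt4, a ligand of both branches, had 177, 103 and 71.6 CPM in controls and 134, 172 and 143 CPM in CXCL12-deficient libraries, and its groups overlapped (log2 fold change 0.35, 95% interval -0.31 to 1.01, adjusted p = 0.585, edgeR). Control replicate 1, with the most osteoblast marker RNA, also had the most Wnt4, Wnt11 and Wnt5b among the controls. Control replicate 3 had the lowest osteoblast sum, Wnt4 and Wnt11, but Wnt5b was lowest in control replicate 2. Of the CXCL12-deficient libraries, replicate 2 had the highest osteoblast sum, Wnt4 and Wnt5b. Wnt11 was highest in CXCL12-deficient replicate 3, where that sum was lowest. The part of osteoblast RNA in these values was not tested. Wnt11 spans chromosome 7 from 98835112 to 98855195 on the plus strand, and 8.8% of its exon bases are shared with a pseudogene on the other strand.

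Canonical signals act on DNA through the TCF/LEF motif, so the promoter windows of the pathway genes were searched for its letters CTTTGAT and CTTTGAA on both strands. RefSeq promoter windows of GRCm38.p6, 250 bases before to 50 after a start, were matched for 24 of the 38 genes (34 windows). A match was found in 2 windows, 1 of 3 for Wnt5b and 1 of 2 for Wnt11, which is 5.88% against 8.65% of all 32851 windows. The 250 bases before the start are shown for these 2 windows because they hold a match. They are printed 5′ to 3′ on the strand of the gene, with the match in capitals. The matched Wnt5b window has its start inside the annotated gene, and the Wnt5b window at the 5′ end of the gene had no match. Which starts these cells used was not measured, and the match is a description of the letters only. The windows are chr6:119449387-119449636 (minus strand) and chr7:98834862-98835111 (plus strand).
Wnt5b: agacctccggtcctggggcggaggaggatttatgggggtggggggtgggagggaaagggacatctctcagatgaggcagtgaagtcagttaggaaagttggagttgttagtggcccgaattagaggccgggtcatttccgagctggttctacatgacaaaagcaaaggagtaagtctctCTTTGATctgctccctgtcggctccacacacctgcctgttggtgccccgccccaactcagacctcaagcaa
Wnt11: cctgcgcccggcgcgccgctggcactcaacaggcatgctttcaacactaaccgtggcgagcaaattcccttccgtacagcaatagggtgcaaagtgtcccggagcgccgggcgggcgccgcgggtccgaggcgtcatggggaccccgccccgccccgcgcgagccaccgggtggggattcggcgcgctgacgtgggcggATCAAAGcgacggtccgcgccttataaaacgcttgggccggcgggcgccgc
The match in Wnt5b begins 71 bases before the start. That in Wnt11 begins 51 bases before the start and is the motif on the opposite strand.

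The other ligands were low or did not separate the groups. Wnt5a, the closest relative of Wnt5b, had 17.8, 12.7 and 8.79 CPM in controls and 8.33, 17.1 and 13.1 CPM in CXCL12-deficient libraries. These ranges overlapped almost fully (log2 fold change -0.03, 95% interval -0.82 to 0.76, adjusted p = 0.979, edgeR). Wnt10a, a canonical ligand, had 32, 59 and 40 reads (1.14, 2.40 and 1.89 CPM) in controls and 12, 18 and 0 reads in CXCL12-deficient libraries. Its groups did not overlap, but at these counts the interval ran from -4.49 to 0.37 on the log2 scale (log2 fold change -2.06, adjusted p = 0.345, edgeR). Wnt9a, another canonical ligand, had 3, 11 and 47 reads in controls and 38, 93 and 78 in CXCL12-deficient libraries, with overlap through control replicate 3 (log2 fold change 1.72 ± 0.96 SE, adjusted p = 0.377, edgeR). Its log2 fold change was 3.43 when control replicate 3 was left out and 1.17 when control replicate 1 was (adjusted p = 0.172 and 0.500, edgeR). Wnt6 passed the filter with at most 44 reads in a library (adjusted p = 0.922, edgeR). Wnt2b, Wnt7b and Wnt16 did not pass it: each had reads in some libraries only, at most 10, 7 and 14. Wnt16 had 0 reads in all 3 CXCL12-deficient libraries, which allows up to 0.125, 0.131 and 0.133 CPM (3 counts per library).

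**Figure D2:**
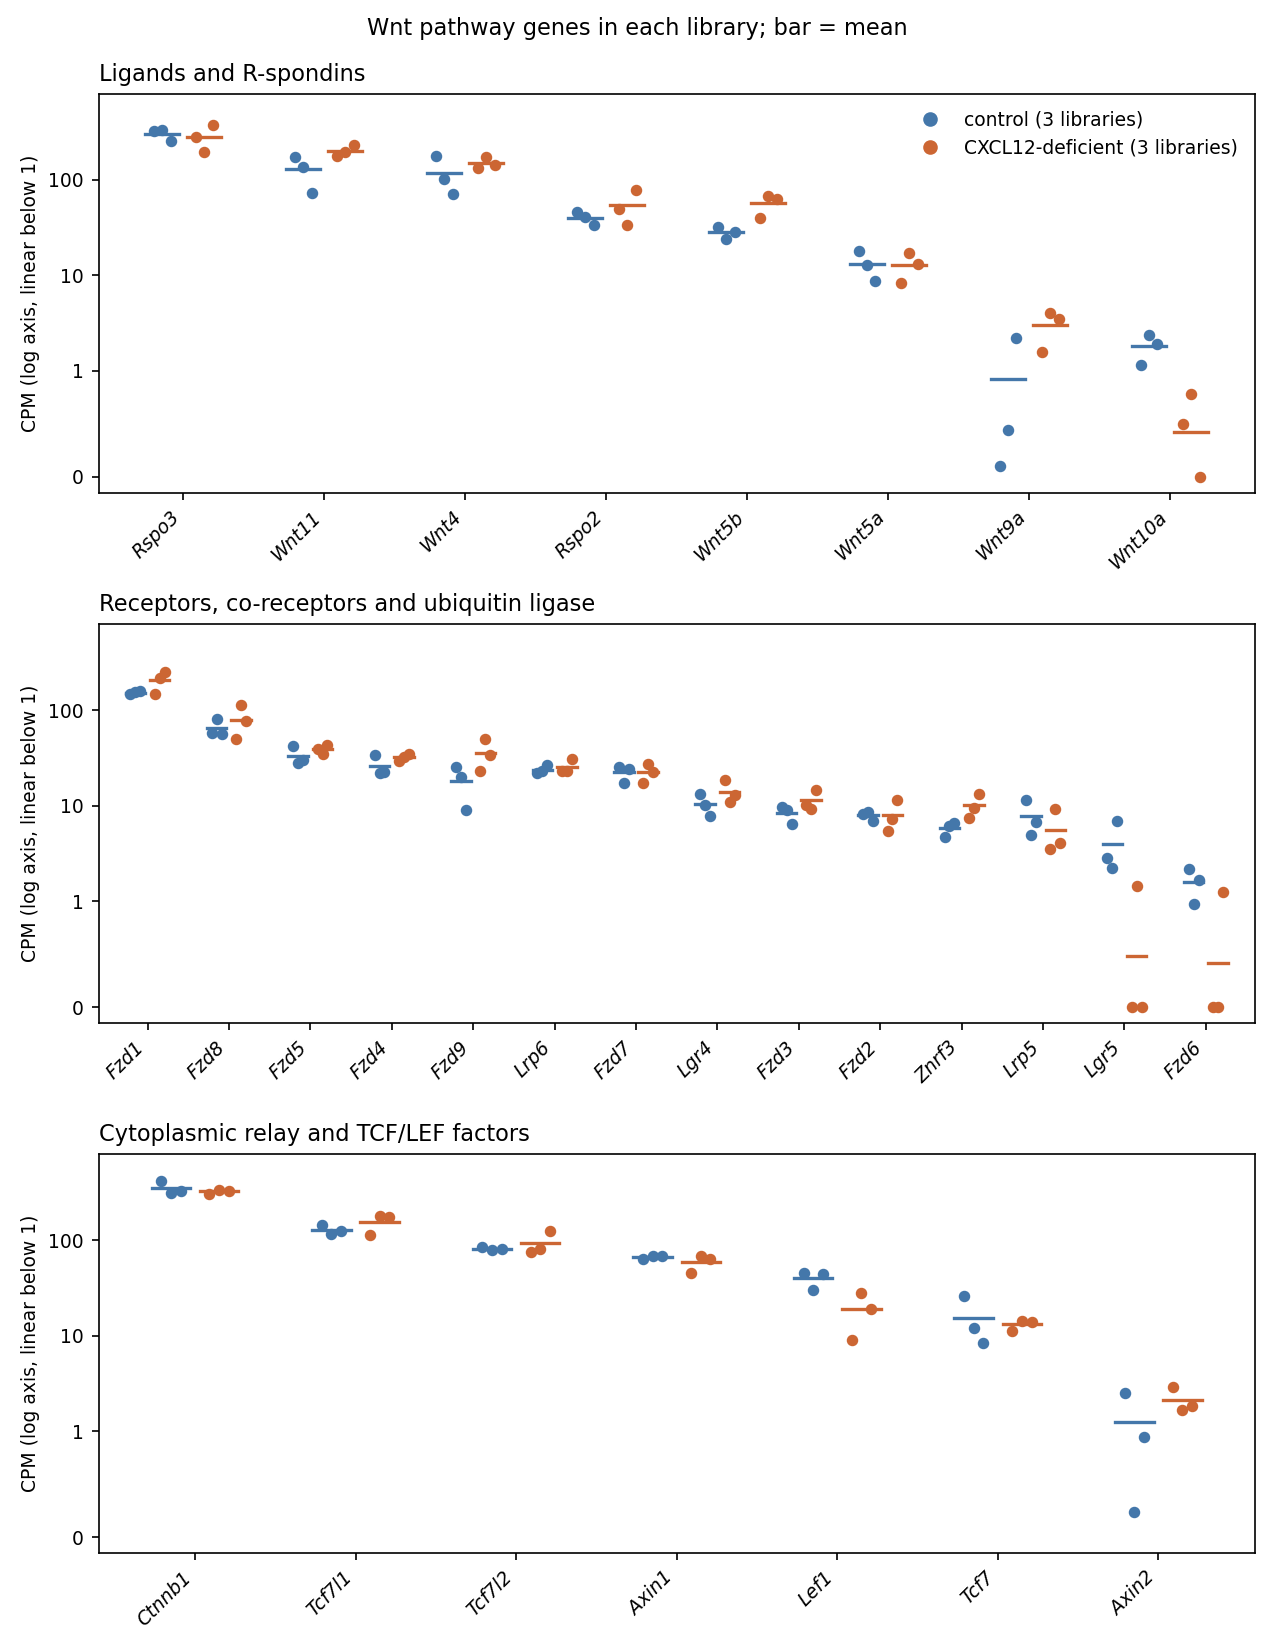
CPM of 29 genes (those whose mean reached 1 CPM) in each of 3 control (blue) and 3 CXCL12-deficient (orange) libraries, with bars at the group means, on a log axis that is linear below 1. The 2 groups of points are separate for Wnt5b, Wnt11, Wnt10a, Znrf3, Lgr5 and Lef1, and Lgr5, Fzd6 and Wnt10a have CXCL12-deficient libraries at 0.

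Rspo3 was the most abundant secreted member per length of transcript, and neither measured R-spondin was called. Rspo3 encodes a secreted amplifier of Wnt signals. It had 323, 334 and 253 CPM in controls and 278, 195 and 371 CPM in CXCL12-deficient libraries, where the lowest and the highest of the 6 values both occurred. Its log2 fold change was -0.11 (95% interval -0.64 to 0.42, adjusted p = 0.852, edgeR). Rspo2, a related amplifier, had 45.8, 40.9 and 33.6 CPM in controls and 49.8, 33.7 and 78.7 CPM in CXCL12-deficient libraries (log2 fold change 0.43, 95% interval -0.22 to 1.08, adjusted p = 0.482, edgeR). For both genes CXCL12-deficient replicate 2 was the lowest of its group and replicate 3 the highest. Rspo1 and Rspo4 did not pass the filter, with reads in 1 and 2 libraries and at most 15 and 18.

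Among the R-spondin receptors, Lgr4 was detected in every library and Lgr5 had reads in all 3 controls and 1 CXCL12-deficient library. Lgr4, the broadly expressed receptor of the 3, had 13.3, 10.2 and 7.75 CPM in controls and 18.3, 10.8 and 12.9 CPM in CXCL12-deficient libraries. Its groups overlapped (log2 fold change 0.43, adjusted p = 0.511, edgeR). Lgr5, known as a stem cell marker of gut and skin and as a Wnt target, had 79, 54 and 145 reads in controls (2.82, 2.19 and 6.85 CPM) and 0, 33 and 0 reads in CXCL12-deficient libraries. The groups did not overlap, yet the gene was not called (log2 fold change -3.03 ± 1.39 SE, 95% interval -6.17 to 0.11, adjusted p = 0.281, edgeR). It was called when CXCL12-deficient replicate 2, the one with reads, was left out (adjusted p = 0.0258, edgeR). That refit keeps only CXCL12-deficient libraries at 0 reads, so its call adds no support for a difference. A count of 0 allows up to 0.125 and 0.133 CPM in CXCL12-deficient replicates 1 and 3. Lgr6 did not pass the filter, with 15 reads in 1 control and 20 in 1 CXCL12-deficient library. The gene Lgr5 spans chromosome 10 from 115450311 to 115587780 on the minus strand.

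Znrf3, which removes Frizzleds from the cell surface and is itself a Wnt target, had 4.68, 6.06 and 6.52 CPM in controls and 7.33, 9.46 and 13.3 CPM in CXCL12-deficient libraries. Every CXCL12-deficient library exceeded every control. The means were 5.75 ± 0.959 and 10.02 ± 3.01 CPM (SD, n = 3 each), and the log2 fold change of 0.80 ± 0.33 SE (95% interval 0.06 to 1.54) did not pass the adjusted test (unadjusted p = 0.0366, adjusted p = 0.227, edgeR). Its partner Rnf43 had at most 12 reads in a library and was not tested.

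Fzd1 led the Frizzled receptors, and among 9 tested Frizzled genes edgeR, DESeq2 and limma-voom each called 0 (in edgeR 1 had an unadjusted p below 0.05). Over all tested genes edgeR called 4.57%, and 18.9% had an unadjusted p below 0.05. Fzd1 had 146, 153 and 157 CPM in controls and 146, 217 and 249.1 CPM in CXCL12-deficient libraries. CXCL12-deficient replicate 1 was at the control level and the other two were above it (log2 fold change 0.42 ± 0.20 SE, 95% interval -0.02 to 0.87, adjusted p = 0.289, edgeR). Fzd9, a receptor known to take part in bone formation, had 25.1, 19.9 and 8.93 CPM in controls and 23.0, 49.5 and 33.7 CPM in CXCL12-deficient libraries. The means were 18.0 ± 8.24 and 35.4 ± 13.3 CPM (SD, n = 3 each), and the groups overlapped through control replicate 1. The log2 fold change was 0.98 ± 0.39 SE (unadjusted p = 0.0342, adjusted p = 0.219, edgeR). Fzd8 had 56.9, 81.0 and 56.3 CPM in controls and 49.4, 112 and 77.0 CPM in CXCL12-deficient libraries (log2 fold change 0.30, 95% interval -0.35 to 0.94, adjusted p = 0.646, edgeR).

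Fzd4 and Fzd5 had similar levels in both groups. Fzd4, the norrin receptor of blood vessels, had 33.9, 21.99 and 22.6 CPM in controls and 29.1, 32.1 and 35.0 CPM in CXCL12-deficient libraries (log2 fold change 0.29, 95% interval -0.20 to 0.79, adjusted p = 0.533, edgeR). The sum of 15 endothelial markers ranged from 152 to 222 CPM across control libraries and from 54.9 to 97.7 CPM across CXCL12-deficient ones. By edgeR 7 of the 15 were called lower and 1 higher, against 3.94% and 0.639% of all tested genes. Mean Fzd4 was 26.2 CPM for the control group and 32.1 CPM for the CXCL12-deficient group. The part of endothelial RNA in the Fzd4 values was not tested. Fzd5 had 41.7, 28.01 and 30.2 CPM in controls and 39.4, 34.7 and 42.9 CPM in CXCL12-deficient libraries (log2 fold change 0.23, adjusted p = 0.617, edgeR). The highest control value of both genes was in control replicate 1. For Fzd5, 17.8% of exon bases overlap a transcript on the other strand.

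The remaining Frizzleds were low or flat. Fzd7 had 25.5, 17.3 and 24.0 CPM in controls and 17.2, 27.2 and 22.6 CPM in CXCL12-deficient libraries, with group means of 22.2 and 22.3 CPM (95% interval of the log2 fold change -0.55 to 0.56). Fzd2 had 8.21, 8.495 and 6.94 CPM against 5.37, 7.24 and 11.5 CPM (log2 fold change 0.03, adjusted p = 0.977, edgeR). Fzd3, a receptor of axon guidance and planar polarity, had 9.71, 8.98 and 6.43 CPM against 10.1, 9.11 and 14.7 CPM (log2 fold change 0.43, adjusted p = 0.503, edgeR). In all 3 genes the groups overlapped. Fzd6, also a planar polarity receptor, had 61, 24 and 35 reads in controls and 0, 0 and 28 reads in CXCL12-deficient libraries. It was not called (log2 fold change -1.95 ± 1.42 SE, adjusted p = 0.522, edgeR), but was without CXCL12-deficient replicate 3, the one with reads (adjusted p = 0.0394, edgeR). Only CXCL12-deficient libraries at 0 reads remain in that refit, so its call adds no support for a difference. Fzd10 had 6 reads in control replicate 3 and 0 in all other libraries.

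The co-receptor genes Lrp5 and Lrp6 overlapped between the groups. Lrp6 had 21.7, 22.9 and 26.6 CPM in controls and 22.8, 23.0 and 30.4 CPM in CXCL12-deficient libraries, with a 95% interval of the log2 fold change from -0.36 to 0.56. Lrp5, whose human gene is known for its effect on bone mass, was more variable, with 11.5, 4.96 and 6.66 CPM in controls and 3.54, 9.16 and 4.04 CPM in CXCL12-deficient libraries (log2 fold change -0.46, 95% interval -1.53 to 0.60, adjusted p = 0.668, edgeR). The highest Lrp5 library of each group was also the one with most osteoblast marker RNA of that group. The lowest libraries differed. Lrp5 was lowest in control replicate 2 and CXCL12-deficient replicate 1, while the osteoblast sum was lowest in replicate 3 of each group. The part of osteoblast RNA in the Lrp5 values was not tested.

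Per kilobase of exon, a scale on which genes can be compared, Fzd1 made up about the same share of Frizzled RNA in both groups. It had 36.2 ± 1.41 CPM per kb in controls and 48.6 ± 12.6 CPM per kb in CXCL12-deficient libraries (SD, n = 3 each), which was 50.7% ± 5.14 and 50.7% ± 4.14 of the family. Fzd8 made up 15.1% and 13.6%, and Fzd9 10.7% ± 4.45 and 15.9% ± 3.20. Fzd9 had the larger share of the pair in every CXCL12-deficient library and in control replicate 1. Among ligands, Wnt11 (42.0% and 44.8%), Wnt4 (37.5% and 32.9%) and Wnt5b (15.8% ± 5.61 and 19.5% ± 2.86) made up most of the total in both groups. The share of Wnt5b overlapped between the groups, since in control replicate 3, where Wnt4 and Wnt11 were lowest, it was already 22.2%. Rspo3 made up 92.5% ± 0.376 of R-spondin RNA in controls and 89.7% ± 0.891 in CXCL12-deficient libraries, and its share was lower in each of the latter. Exon lengths are those of GENCODE M21 over all transcripts, so a gene that uses a short form is set too low on this scale.

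**Figure D3:**
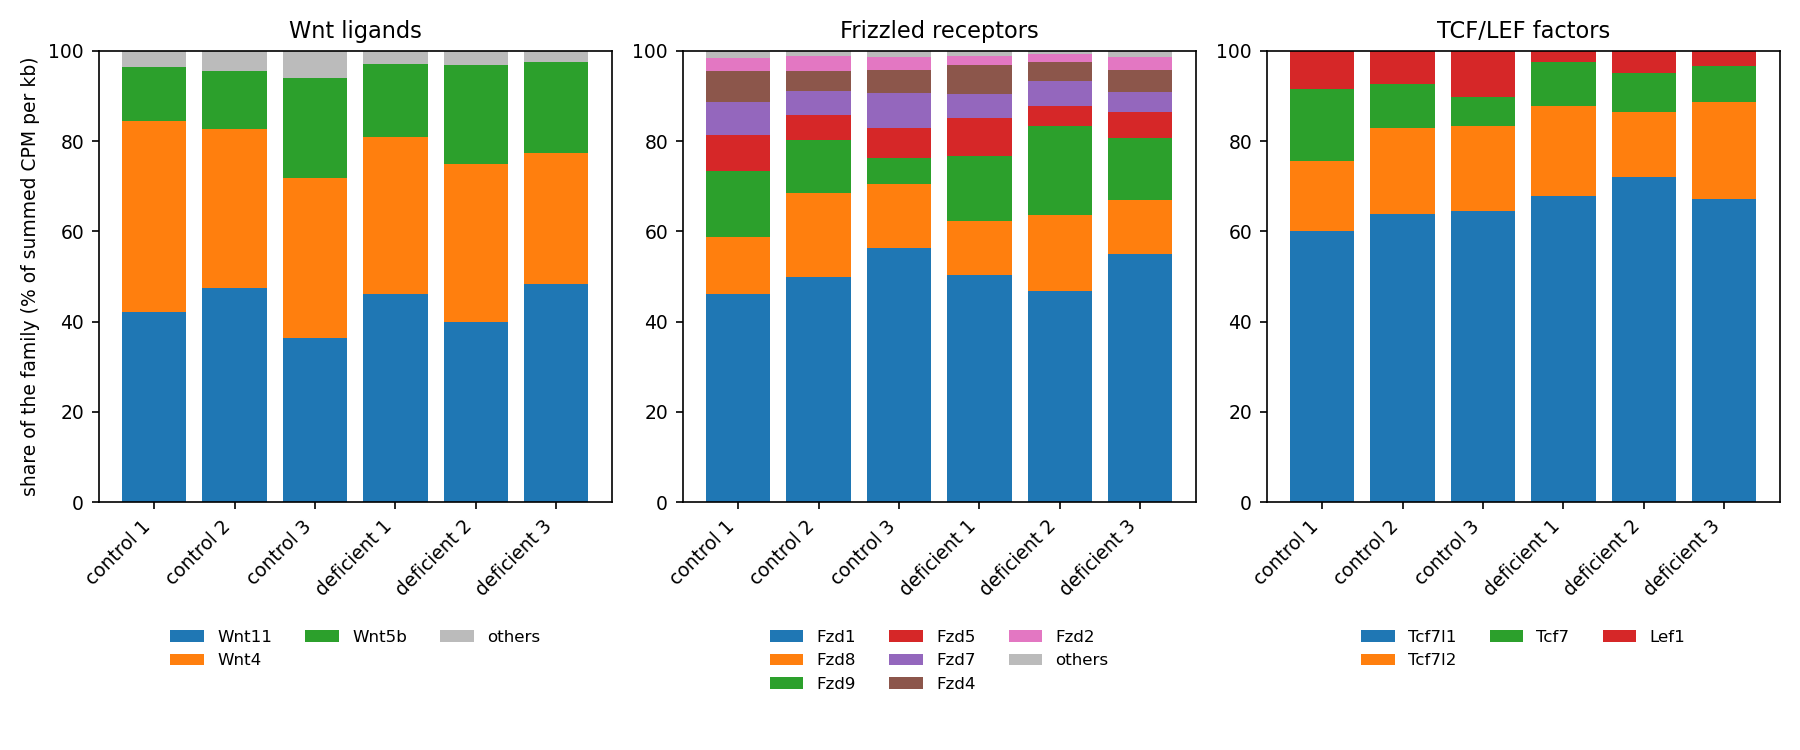
Share of each gene in its family in each library, in percent of the summed CPM per kilobase of exon, for Wnt ligands, Frizzled receptors and TCF/LEF factors. Genes with a mean share under 2% are drawn as others. Wnt11 and Wnt4, Fzd1 and Tcf7l1 lead in all 6 libraries, and the share of Lef1 is smaller in the CXCL12-deficient libraries (2.4% to 5.0%) than in controls (7.3% to 10.2%).

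Among the 30 tested genes, those of beta-catenin and the scaffold Axin1 had the narrowest intervals. Ctnnb1, which encodes beta-catenin, had 420.2, 315 and 325 CPM in controls and 302, 339 and 331 CPM in CXCL12-deficient libraries. Outside control replicate 1 the values lay between 302 and 339 CPM (log2 fold change -0.12, 95% interval -0.49 to 0.24, adjusted p = 0.747, edgeR). Beta-catenin is regulated mainly as a protein, which was not measured. Axin1, a scaffold of the complex that destroys it, had 63.9, 68.0 and 68.2 CPM in controls and 45.8, 68.7 and 63.9 CPM in CXCL12-deficient libraries (log2 fold change -0.17, 95% interval -0.57 to 0.24, adjusted p = 0.693, edgeR). For Ctnnb1, 15.1% of exon bases are shared with other genes, mostly Ulk4 on the opposite strand.

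Axin2, the usual readout of canonical signalling, was low and its groups overlapped. It had 71, 6 and 20 reads in controls (2.53, 0.244 and 0.945 CPM) and 70, 38 and 41 reads in CXCL12-deficient libraries (2.92, 1.66 and 1.82 CPM). The controls alone spanned a 10.4-fold range, and control replicate 1 lay among the CXCL12-deficient values. The log2 fold change of 0.77 ± 0.81 SE had a 95% interval from -1.06 to 2.60 (adjusted p = 0.678, edgeR), so neither a 2-fold lower nor a 4-fold higher level was outside it. It was 1.82 when control replicate 1 was left out and 0.29 when control replicate 2 was (adjusted p = 0.299 and 0.906, edgeR).

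Lef1 showed the largest difference among the TCF/LEF factors, in the lower direction, without passing the adjusted test. This factor of early B and T cells, which osteoblast precursors also express, had 45.4, 29.8 and 44.3 CPM in controls and 9.12, 28.3 and 19.3 CPM in CXCL12-deficient libraries. The groups did not overlap, though control replicate 2 and CXCL12-deficient replicate 2 were close. The means were 39.8 ± 8.70 and 18.9 ± 9.62 CPM (SD, n = 3 each), with a log2 fold change of -1.07 ± 0.37 SE (95% interval -1.91 to -0.24, unadjusted p = 0.0176, adjusted p = 0.154, edgeR). DESeq2 called the gene (adjusted p = 0.0423) and limma-voom did not (adjusted p = 0.101). In GENCODE M21 Lef1 spans chromosome 3 from 131110471 to 131224356 on the plus strand, and 13.8% of its exon bases are shared with an antisense transcript.

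Lymphocyte RNA was lower in the same libraries. Without Ebf1, which stromal cells also express, 12 B lineage markers summed to 381, 720.4 and 1056 CPM in controls and 279.9, 216 and 93.8 CPM in CXCL12-deficient libraries. The 12 T and NK cell markers summed to 55.0, 94.3 and 71.7 CPM against 13.5, 34.8 and 12.1 CPM. By edgeR 3 of the 13 B lineage markers and 1 of 10 tested T and NK cell markers fell. Of the T and NK cell markers 7 were at 0 in at least 1 library, and of the B lineage markers none. Cd79a, a B cell receptor component, had 98.8, 194 and 255 CPM in controls and 71.5, 55.9 and 24.9 CPM in CXCL12-deficient libraries, and the T cell receptor component Cd3e had 17, 13 and 65 reads against 0, 0 and 7. Lef1 and Cd79a differed in order: Cd79a was lowest of the controls in replicate 1, where Lef1 was highest. The T and NK cell sum and Lef1 were both highest of the CXCL12-deficient libraries in replicate 2. In the controls they differed in order: the sum was highest in replicate 2 (94.3 CPM), where Lef1 was lowest (29.8 CPM). The marker Nkg7 was the largest part of this sum in every library. It had 60.7 CPM in control replicate 2 and 18.7 CPM in CXCL12-deficient replicate 2. The osteoblast marker Col1a1, a bone collagen, had 9819, 2123 and 1249 CPM in controls and 1519, 7055 and 1419.8 CPM in CXCL12-deficient libraries. Of the CXCL12-deficient libraries, replicate 2 was also highest for Bglap, Bglap2 and Sp7. Ibsp, Dmp1, Spp1, Phex and Car3 were highest in replicate 1, where Lef1 was lowest, and Alpl and Runx2 in replicate 3. The part of lymphocyte or osteoblast RNA in the Lef1 values was not tested.

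**Figure D4:**
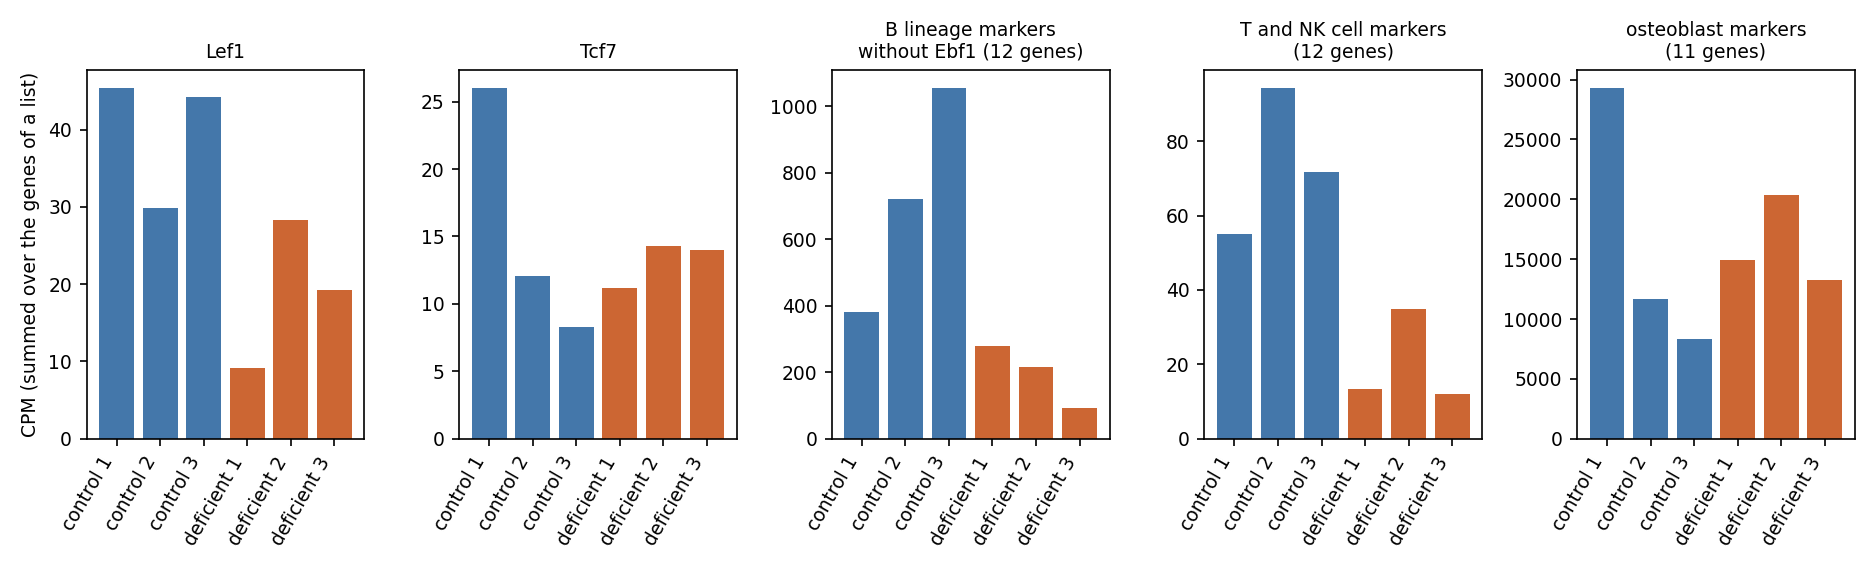
CPM of Lef1 and Tcf7 and summed CPM of B lineage, T and NK cell and osteoblast markers in each of 3 control (blue bars) and 3 CXCL12-deficient (orange bars) libraries. Lef1 and both lymphocyte sums are lower in every CXCL12-deficient library than in any control, while Tcf7 and the osteoblast sum overlap.

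The other factors were not called. Tcf7, a factor of T cells that many tissues also use, had 26.02, 12.03 and 8.31 CPM in controls and 11.2, 14.3 and 14.0 CPM in CXCL12-deficient libraries. Its negative log2 fold change (-0.24, adjusted p = 0.808, edgeR) came from control replicate 1, without which it was 0.35. Tcf7l1, usually a repressor of Wnt targets, was the most abundant factor per kilobase. It had 145, 117 and 125 CPM in controls and 114, 181 and 174 CPM in CXCL12-deficient libraries (log2 fold change 0.28, 95% interval -0.17 to 0.72, adjusted p = 0.512, edgeR). Tcf7l2 had 84.2, 78.2 and 81.8 CPM in controls, a narrow range, and 74.8, 81.7 and 125 CPM in CXCL12-deficient libraries (log2 fold change 0.20, 95% interval -0.26 to 0.66, adjusted p = 0.662, edgeR). Of TCF/LEF RNA per kilobase, Lef1 made up 8.62% ± 1.49 in controls and 3.59% ± 1.33 in CXCL12-deficient libraries, and Tcf7l1 made up 62.8% ± 2.39 and 68.9% ± 2.63 (SD, n = 3 each). Neither share overlapped between the groups. The shares are parts of the same total, so a lower Lef1 share by itself raises the others. In CPM, Tcf7l1 did overlap between the groups.

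Outside these 38 genes, 6 lists with 76 further pathway genes in the table gave 2 calls among 69 tested genes, both higher and both secreted antagonists; the median difference was 0.14 on the log2 scale. That count of 2 is read against the 4.57% of all tested genes that were called, and the 0.639% called higher. Of 8 tested antagonist genes 2 rose by edgeR, and DESeq2 and limma-voom also called 2 genes of this list higher. Sfrp4, whose product binds Wnt proteins, had 535, 566 and 446 CPM in controls and 1778, 858 and 1998 CPM in CXCL12-deficient libraries (log2 fold change 1.58, adjusted p = 0.0202, edgeR). Sfrp1, of the same family, had 80.9, 79.8 and 94.6 CPM against 123, 129 and 149 CPM (log2 fold change 0.65, adjusted p = 0.0449, edgeR). When any control replicate was left out edgeR called 0 of the pathway genes (11, 5 and 5 at an unadjusted p below 0.05 for replicates 1, 2 and 3). Over all tested genes 47, 6 and 0 were then called higher, and 2724, 1977 and 1690 had an unadjusted p below 0.05. Of the pathway genes edgeR also called 0 when CXCL12-deficient replicate 1 was left out (13 at an unadjusted p below 0.05), and 1 for replicates 2 and 3. Over all tested genes 37, 76 and 69 were called higher without CXCL12-deficient replicates 1, 2 and 3.

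The secretion and surface cofactors held 0 called genes among 10 by edgeR, DESeq2 or limma-voom, with 1 at an unadjusted p below 0.05 and a log2 median of 0.31. Counts of this list and of those below are read against all tested genes. Of these edgeR called 4.57%, and 18.9% had an unadjusted p below 0.05. Wls, which carries Wnt proteins to the cell surface, had 383, 346 and 339 CPM in controls and 454, 409 and 568 CPM in CXCL12-deficient libraries. These groups did not overlap (log2 fold change 0.42 ± 0.17 SE, unadjusted p = 0.0318, adjusted p = 0.211, edgeR). The surface proteoglycan gene Gpc4 had 121, 96.1 and 107 CPM against 126, 122 and 171 CPM (adjusted p = 0.303, edgeR).

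The non-canonical receptors and polarity genes held 0 called genes among 12 by the same 3 tools, with 2 at an unadjusted p below 0.05 and a log2 median of 0.13. Ryk, a Wnt receptor outside the Frizzled family, had 81.7, 83.3 and 64.6 CPM in controls and 94.3, 106 and 121 CPM in CXCL12-deficient libraries, with no overlap (log2 fold change 0.49, unadjusted p = 0.0173, adjusted p = 0.153, edgeR). Ptk7, a co-receptor of polarity signals, had 151, 122 and 126 CPM against 115, 156 and 169 CPM and overlapped (adjusted p = 0.737, edgeR).

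The lists inside the cell were also without calls by edgeR, DESeq2 or limma-voom. Of 16 tested genes of the cytoplasmic relay and destruction complex 1 passed an unadjusted p of 0.05, and their log2 median was 0.16. The kinase gene Csnk1a1, which gives beta-catenin its first phosphate, had 185, 189.8 and 203 CPM in controls and 215, 178 and 184 CPM in CXCL12-deficient libraries, with a 95% interval of the log2 fold change of only -0.32 to 0.32. The related kinase gene Csnk1d had 180.1, 147 and 160.3 CPM against 161, 174 and 146 CPM (adjusted p = 0.965, edgeR). Of the 12 nuclear cofactors 4 passed an unadjusted p of 0.05, where 18.9% of all tested genes did, and the median was 0.31. Tle2, a co-repressor that binds TCF/LEF factors, had 281, 244 and 319 CPM in controls and 296, 405 and 560.4 CPM in CXCL12-deficient libraries (log2 fold change 0.58, unadjusted p = 0.0342, adjusted p = 0.219, edgeR). Its relatives Tle3 and Tle4, named here after their values were seen, had negative log2 fold changes and no overlap between the groups. Tle3 had 24.5, 18.9 and 22.6 CPM in controls and 14.3, 18.3 and 13.9 CPM in CXCL12-deficient libraries (log2 fold change -0.51, unadjusted p = 0.0454, adjusted p = 0.251, edgeR). Tle4 had 21.7, 18.98 and 26.6 CPM against 17.4, 11.5 and 10.7 CPM (log2 fold change -0.77, unadjusted p = 0.0164, adjusted p = 0.149, edgeR). Ctnnbip1, an inhibitor of beta-catenin, had 101, 81.4 and 73.4 CPM against 81.8, 108 and 91.7 CPM (adjusted p = 0.749, edgeR).

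Other genes known as Wnt targets were spread around a log2 median of 0.07, with 0 of 11 called by edgeR, DESeq2 or limma-voom or past an unadjusted p of 0.05. Myc, a growth regulator with many other inputs, had 739, 788 and 712 CPM in controls and 633, 667 and 697 CPM in CXCL12-deficient libraries. The groups did not overlap but lay close together (log2 fold change -0.17, 95% interval -0.49 to 0.16, adjusted p = 0.606, edgeR). Tnfrsf19, a receptor of the tumour necrosis factor family, had 435, 233 and 254 CPM against 296, 463 and 361 CPM (log2 fold change 0.28, adjusted p = 0.635, edgeR).

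**Figure D5:**
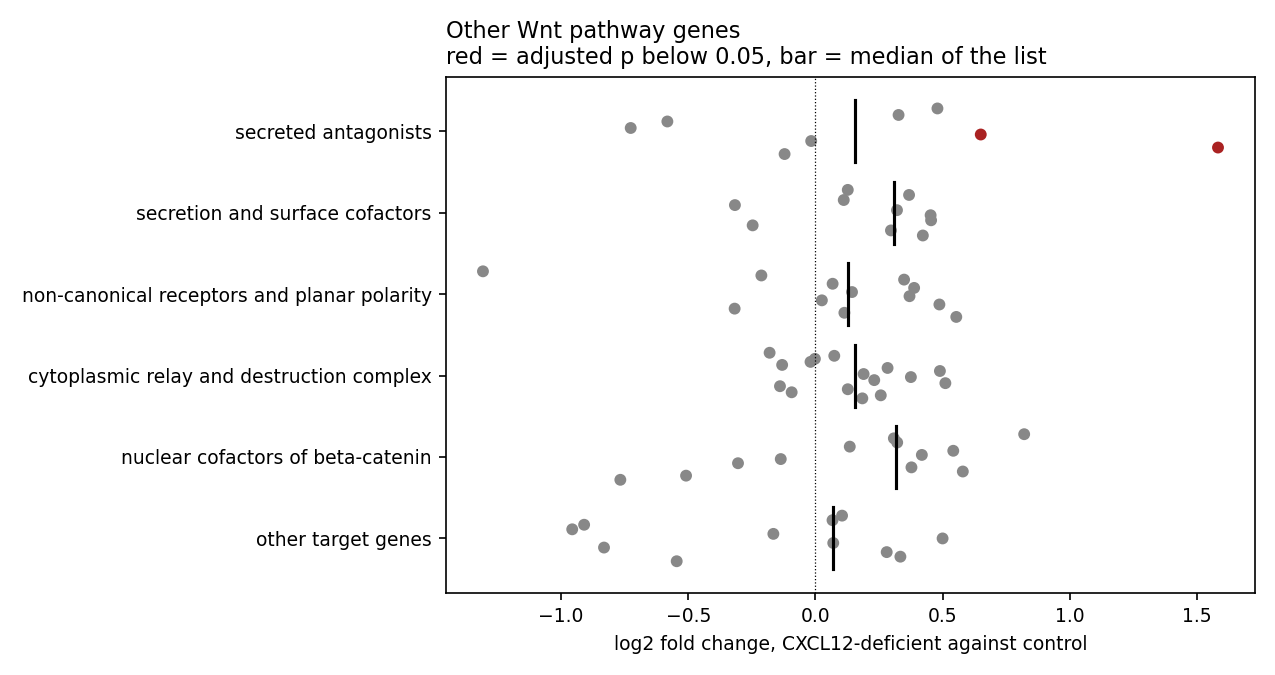
Log2 fold change of each of 69 tested genes in 6 lists of other Wnt pathway genes (points), with the median of each list (bars) and called genes in red. The medians lie between 0.07 and 0.31, and the 2 called genes are the antagonists Sfrp4 (1.58) and Sfrp1 (0.65).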

How the data were processed

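RNA sequencing was done on about 20000 sorted cells per library, with a Nextera XT library kit, per the labels. The authors deposited raw whole-number counts of reads for each gene. Alignment and counting tools named in the submitters' processing notes, without their roles, are TopHat2 2.0.13, HTSeq and Bowtie2 2.2.1, with the build mm10. Which annotation and strand setting were used, and how shared reads were treated, is not stated there, so counts of overlapping genes are uncertain. Of 17131 entries, 4 exon entries of Cxcl12 were summed, which left 17128 genes.

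Low counts were filtered with filterByExpr (minimum count 10, minimum total 15), which kept 13926 genes. Groups were compared in edgeR 4.0.16 (R 4.3.3) by its quasi-likelihood test with robust shrinkage, TMM factors (0.955 to 1.05), Benjamini-Hochberg adjustment and a threshold of 0.05. Standard errors and 95% intervals were derived from each gene's F value. Rises and falls are named only for called genes. CPM per kb used exon lengths of GENCODE M21. Intervals and floors of 3 counts cover counting and library spread only, since reads carry no molecular identifiers. Alternatives were DESeq2 size factors, no filter, DESeq2 1.42.0, limma-voom (limma 3.58.1), no robust shrinkage and leaving out each library. The labels give no replicate number, litter or batch.

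Named genes were the members with a mean of at least 1 CPM and, per pathway list, up to 4 called genes or the 2 most abundant. The members and all lists were chosen with earlier results of these data known. Of the listed pathway genes, 76 of 80 were in the table, some under older symbols. The B lineage sum without Ebf1 was added after the values were seen. On simulated counts of 13706 genes with 200 changed, the fit recovered 9.23% of 1.5-fold, 35.8% of 2-fold and 84.6% of 4-fold differences, with 3 false among 88 calls. The simulated spread followed only the trend with expression level fitted to these data. It held no further differences between genes and no shifts shared by genes of a library. Recovery and false calls in the real libraries may therefore differ.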

Additional observations from a re-analysis of the deposited data

How the results depend on the processing

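The number of called genes among the 38 was 1 with DESeq2 size factors, without the filter and without robust shrinkage, 2 by DESeq2 (Wnt5b and Lef1) and 0 by limma-voom, where 9 passed an unadjusted p of 0.05. Leaving out 1 library gave between 0 and 1. Without CXCL12-deficient replicate 2 or 3 the count of 1 was another gene, Lgr5 or Fzd6, each lower and at 0 reads in the remaining CXCL12-deficient libraries. The 2 calls among other pathway genes became 0 to 1 when a library was left out. Over all tested genes the 637 calls became 1291 by DESeq2 and between 74 and 577 without 1 library (160 without control replicate 2, 74 without control replicate 3). The cause was not tested.

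Of 319 values of the 29 named genes under 11 alternatives, 294 kept direction and side of the threshold and 16 changed sign, in 8 genes with no call. With 1 library left out, the log2 fold changes of these ran from -0.32 to 0.25 (Fzd2), -0.16 to 0.16 (Fzd7), -0.032 to 0.55 (Fzd8), -0.051 to 0.17 (Lrp6), -0.36 to 0.10 (Rspo3), -0.55 to 0.35 (Tcf7), -0.056 to 0.34 (Tcf7l2) and -0.29 to 0.24 (Wnt5a). Fzd2 was at -0.053 by limma-voom, and Fzd7 at -0.0074 with DESeq2 size factors, -0.0075 by DESeq2 and -0.0062 by limma-voom. Axin2, Lgr5, Fzd6, Wnt10a and Wnt9a had at most 145 reads in a library. No paired analysis was possible because the labels give no replicate numbers.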
